A study of Mus musculus with 8 samples.

Results

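Abundance of 10 transcription factors of the sclerotome and paraxial mesoderm was described here in mouse notochord-derived cells (NDCs) at embryonic day 12.5 (E12.5) and at birth (P0). The list held 10 genes of the 43346 gene identifiers counted. It was composed from what these genes are known for, and their own values played no part in the rule. Earlier results of these data were known when it was chosen. All 10 had reads in both stages. Embryos and pups came from the Shh-cre;ROSA:YFP mouse model, in which cells that express Shh, and their descendants, are labelled with YFP. Because Shh is also active in floor plate and gut, the label is not limited to the notochord. Each library came from 1 litter with its animals pooled, and there were 4 litters at E12.5 (NDP10.2, NPD3, NPD4 and NPD9.2) and 4 at P0 (NPD26, NPD27, NPD28 and NPD30). At E12.5, whole notochords were dissected free of adjoining tissue and lysed without sorting. At P0, cells of the nucleus pulposus (NP) of thoracic and lumbar discs were dissociated mechanically, strained and sorted for YFP. Stage and isolation method therefore changed together and cannot be told apart.

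The sclerotome is the ventral part of the somite that lies beside the notochord and gives rise to vertebrae, ribs and the outer disc. It forms in response to Sonic hedgehog from the notochord and floor plate, and in its cells Pax1 and Pax9 act upstream of Nkx3-2. Meox1, Meox2, Tcf15, Foxc1 and Foxc2 act more broadly in the somite, while Uncx and Tbx18 mark its posterior and anterior compartments, respectively. The notochord itself is axial mesoderm and is the neighbour of these cells in the embryo.

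The libraries held 4442775 to 8904050 reads assigned to genes. The share of all reads assigned to a gene was lowest at 22.6% and highest at 33.7% among E12.5 litters, against 30.9 to 34.8% among P0 litters. Of the E12.5 litters, 2 stood apart, with 72.0 (NDP10.2) and 71.2 (NPD9.2) ambiguous reads per 100 counted reads against 22.7 to 35.7 in the other libraries. Levels are CPM, the reads of a gene relative to the total of its library, on library sizes scaled by the trimmed mean of M-values (TMM), and 3 counts in 1 library corresponded to 0.353 to 0.738 CPM. The notochord markers T and Krt8 were well above that level, at means of 584 and 326 CPM at E12.5 and 1319 and 488 CPM at P0. Their litters overlapped between stages, and neither difference passed the threshold (adjusted p = 0.117 for T and 0.419 for Krt8, edgeR). Of the 8 notochord genes tested, 2 were called lower at P0 and 2 higher. Noto was near 0 at both stages (0.0488 and 0.187 CPM).

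All 10 factors had lower mRNA abundance at P0 than at E12.5. For every one of them, each E12.5 litter lay above each P0 litter, an arrangement found in 14.4% of all genes tested. Of the 9 factors that entered the edgeR quasi-likelihood test, 9 were lower at P0 at a Benjamini-Hochberg adjusted p under 0.05, against 12.0% of the 15467 genes tested that were called lower (16.0% were called higher and 27.9% in either direction). Without the E12.5 litters NDP10.2 and NPD9.2, 6 factors were called. The filter asked for 1.54 CPM in at least 4 libraries, and 6 of the 9 factors met it only with the help of E12.5 libraries, where they are high. Nkx3-2, Meox1 and Uncx reached that level in 0 P0 libraries, Tbx18 in 1, and Pax1 and Pax9 in 3 each, and Tcf15 did not pass the filter. The share of these factors that were called is therefore no support for a fall. In bulk libraries of this kind, fewer cells of a type and less RNA per cell cannot be told apart.

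The summed CPM of the 10 factors reached 219, 246, 188 and 263 at E12.5 (litters in the order given above). At P0 it was 29.6, 45.1, 21.5 and 37.9. The falls were uneven. Pax1 and Meox1 fell 39.2-fold and 25.5-fold between the stage means, Tbx18 13.1-fold, Uncx 11.7-fold and Nkx3-2 9.36-fold, whereas Pax9, Foxc2, Meox2 and Foxc1 fell 4.30-fold, 3.73-fold, 3.14-fold and 2.75-fold.

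**Figure D1:**
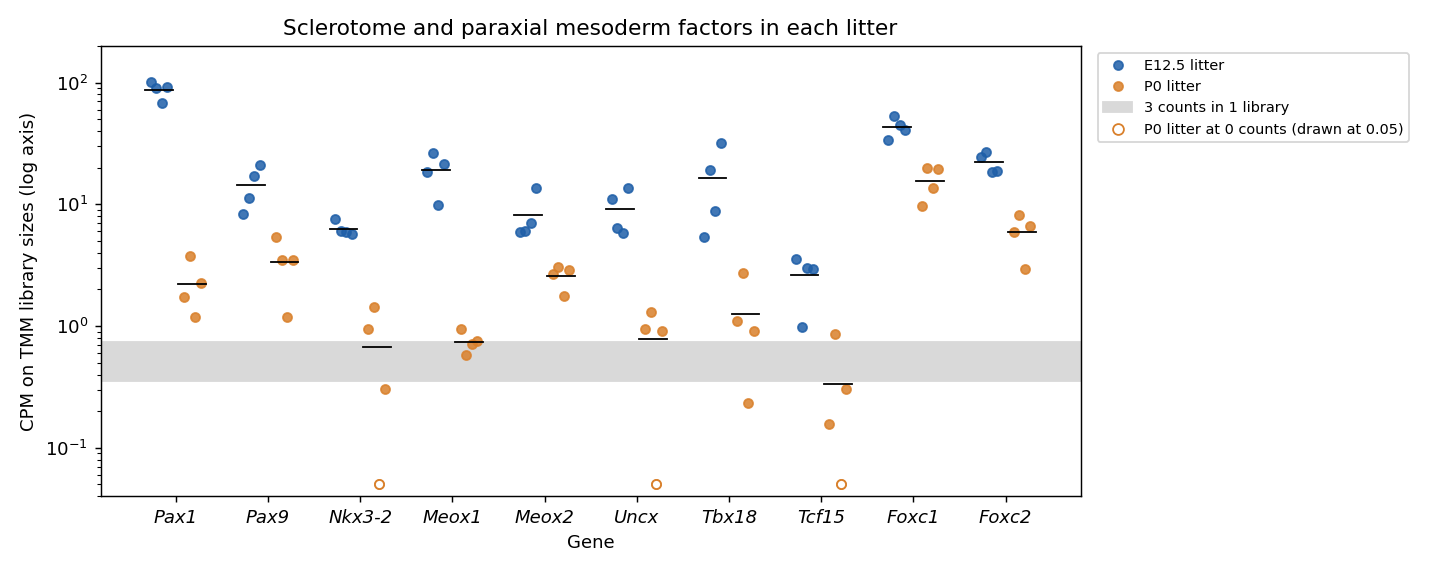
Abundance of each factor in each litter, in CPM on a log axis, with E12.5 litters in blue, P0 litters in orange and black lines at the stage means; open circles mark P0 litters with 0 counts and the grey band spans the CPM of 3 counts in the different libraries. Blue and orange points do not overlap for any of the 10 genes. The P0 points of Nkx3-2, Meox1, Uncx and Tcf15 lie at or near the grey band, as do those of Tbx18 except NPD27 (2.74 CPM).

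Pax1 and Pax9 encode closely related paired-box factors that act together in the sclerotome. Pax1 (chromosome 2, 147361925 to 147393295, plus strand, GRCm38) was measured at 100.3, 89.6, 67.7 and 92.5 CPM at E12.5 (litters in the same order throughout). Its P0 values were 1.73, 3.75, 1.18 and 2.27 CPM. Each E12.5 library held at least 376 reads of it, and no P0 library held more than 26. The log2 fold change of P0 over E12.5 was -5.29 ± 0.37 (SE, adjusted p = 3.43e-05, n = 4 litters per stage, edgeR), and only 52 of the genes tested fell further. Pax9 (chromosome 12, 56691767 to 56712822, plus strand) was measured at 8.26, 11.3, 17.2 and 21.1 CPM at E12.5 and at 5.35, 3.46, 1.18 and 3.49 CPM at P0. The highest P0 litter, NPD26, was still below the lowest E12.5 litter, NDP10.2. Its log2 fold change was -2.11 ± 0.49 (adjusted p = 0.00835, edgeR), and 852 genes fell further. An exon of Slc25a21 on the opposite strand shares 189 bases with Pax9, and one of AI646519 shares 183 bases with Pax1. Whether the counting used strand is not given in the sources used here, so reads in these stretches cannot be assigned with certainty.

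The sequences before the RefSeq transcription starts of this pair are shown as a description. Any part of these sequences in the unequal falls of the 2 genes was not tested. Each is the 250 bases upstream of the start on the plus strand, from RefSeq on GRCm38.p6. Capitals mark matches, on either strand, to any of 6 short motifs: the GC box GGGCGG, the CCAAT box CCAAT, the TATA box TATAAA, the GLI core GACCACC, the Nkx3-2 core TAAGTG and the homeodomain core TAATTA.
Pax1, chr2:147364744-147364993: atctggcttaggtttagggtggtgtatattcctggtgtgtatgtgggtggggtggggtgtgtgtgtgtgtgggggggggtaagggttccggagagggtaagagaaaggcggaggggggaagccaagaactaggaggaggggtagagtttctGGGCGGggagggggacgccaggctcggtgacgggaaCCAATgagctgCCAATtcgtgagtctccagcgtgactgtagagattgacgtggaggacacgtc
Pax9, chr12:56695221-56695470: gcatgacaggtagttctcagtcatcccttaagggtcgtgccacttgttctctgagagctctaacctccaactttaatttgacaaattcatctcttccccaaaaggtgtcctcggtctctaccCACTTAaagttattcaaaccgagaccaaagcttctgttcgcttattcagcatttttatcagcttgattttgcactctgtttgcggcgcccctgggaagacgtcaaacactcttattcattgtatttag
Both windows lie downstream of the Gencode M21 start of their gene. The Pax1 window held a GC box 99 to 94 bases before the start and CCAAT boxes 63 to 59 and 52 to 48 bases before it, which do not overlap each other. The Pax9 window held neither, and its single match was TAAGTG on the minus strand, 128 to 123 bases before the start. Of the 32851 RefSeq promoters with windows of the same length, 32.7% held a GC box, 33.8% a CCAAT box and 7.92% the letters TAAGTG. GC content was 58.8% for Pax1 and 43.6% for Pax9, against a median of 52.4% over all promoters. RefSeq promoters were matched for 7 of the 10 factors, and Meox1, Tcf15 and Foxc2 had no entry. Among the 7, a GC box was found for Pax1, Nkx3-2, Meox2 and Foxc1, and a CCAAT box for Pax1, Uncx, Tbx18 and Foxc1. The letters TATAAA were found for Meox2, on the strand opposite to the gene, and in 12.4% of all promoters. The homeodomain core was found for Uncx and in 4.84% of all promoters. The GLI core was found in none of the 7 and in 2.34% of all promoters.

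Nkx3-2 encodes the homeodomain factor that acts downstream of Pax1 and Pax9 and favours chondrogenesis in the sclerotome. It lies on chromosome 5 (41761483 to 41764501, minus strand). Its level was 7.55, 6.05, 5.92 and 5.66 CPM at E12.5, the narrowest relative spread of the 10 genes at this stage, and 0.944, 1.44, 0 and 0.303 CPM at P0. NPD28 had no read and NPD30 had 2 reads. The log2 fold change was -3.22 ± 0.77 (adjusted p = 0.0101, edgeR). Without the E12.5 litters NDP10.2 and NPD9.2, the difference was -3.19 and no longer passed the threshold (adjusted p = 0.0647, edgeR). Without the P0 litter NPD27 it was -3.92, and with limma-voom -3.98.

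Meox1 and Meox2 encode homeodomain factors that act together in the patterning of somites, and Meox2 is also known from limb muscle and vascular endothelium. Meox1 (chromosome 11, 101877510 to 101894374, minus strand) was measured at 18.4, 26.3, 9.79 and 21.6 CPM at E12.5. At P0 the values were 0.944, 0.577, 0.706 and 0.758 CPM, from 4 to 6 reads in each library. The 4 P0 litters were nearly alike, and even the lowest E12.5 litter, NPD4, lay far above their range. Meox2 (chromosome 12, 37108540 to 37179534, plus strand) was measured at 5.90, 6.05, 7.01 and 13.5 CPM at E12.5 and at 2.67, 3.03, 1.77 and 2.88 CPM at P0. NPD9.2 stood above the other E12.5 litters. The log2 fold change was -4.64 ± 0.44 for Meox1 (adjusted p = 0.000112, edgeR) and -1.64 ± 0.44 for Meox2 (adjusted p = 0.0166, edgeR). The Meox2 call was lost without NPD9.2 (-1.32, adjusted p = 0.0565) and without NDP10.2 and NPD9.2 together (-1.37, adjusted p = 0.0766, both edgeR).

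Uncx, a homeodomain factor, and Tbx18, a T-box factor, maintain the posterior and the anterior compartment of each somite and its sclerotome, respectively. Tbx18 is also expressed in pericytes. Uncx (chromosome 5, 139543494 to 139548179, plus strand) was measured at 11.1, 6.44, 5.80 and 13.5 CPM at E12.5 and at 0.944, 1.30, 0 and 0.910 CPM at P0. Tbx18 (chromosome 9, 87702800 to 87731260, minus strand) was measured at 5.43, 19.1, 8.83 and 32.0 CPM at E12.5 and at 1.10, 2.74, 0.235 and 0.910 CPM at P0. Tbx18 varied most among the E12.5 litters, and NPD28 held 0 reads of Uncx and 2 reads of Tbx18. The log2 fold changes were -3.54 ± 0.74 for Uncx (adjusted p = 0.00508) and -3.70 ± 0.74 for Tbx18 (adjusted p = 0.00439, both edgeR). Without NDP10.2 and NPD9.2, Uncx stood at -2.99 with an adjusted p of 0.0646. Tbx18 stood at -4.44 without NPD27. The gene D030062O11Rik overlaps 970 exon bases of Tbx18 on the opposite strand and was counted at no more than 5 reads per library.

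Tcf15 encodes the basic helix-loop-helix factor required for somites to become epithelial. It lies on chromosome 2 (152143561 to 152149097, plus strand) and had the fewest reads of the 10 genes, with 15, 5, 25 and 12 reads at E12.5 and 1, 6, 0 and 2 reads at P0. These corresponded to 3.54, 0.976, 3.02 and 2.95 CPM and to 0.157, 0.865, 0 and 0.303 CPM. NPD3 at E12.5 and NPD27 at P0 nearly met, and their order in CPM rests on library size, since NPD27 had the extra read. The gene did not pass the filter, and in the fit without a filter its log2 fold change was -2.94 (adjusted p = 0.0319, edgeR).

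Foxc1 and Foxc2 encode forkhead factors that act redundantly in paraxial mesoderm and are also known from endothelium, cartilage and kidney. Foxc1 (chromosome 13, 31806633 to 31812476, plus strand) consists of a single exon and was measured at 33.7, 52.7, 44.5 and 41.1 CPM at E12.5 and at 9.75, 19.8, 13.5 and 19.4 CPM at P0. Foxc2 (chromosome 8, 121116171 to 121118895, plus strand), also with a single exon, was measured at 24.5, 27.1, 18.4 and 18.7 CPM at E12.5 and at 5.98, 8.22, 2.94 and 6.67 CPM at P0. At least 25 reads of either gene were counted in every P0 library, a higher minimum than for any other factor. The log2 fold changes were -1.46 ± 0.28 for Foxc1 (adjusted p = 0.00347) and -1.90 ± 0.35 for Foxc2 (adjusted p = 0.00288, both edgeR).

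**Figure D2:**
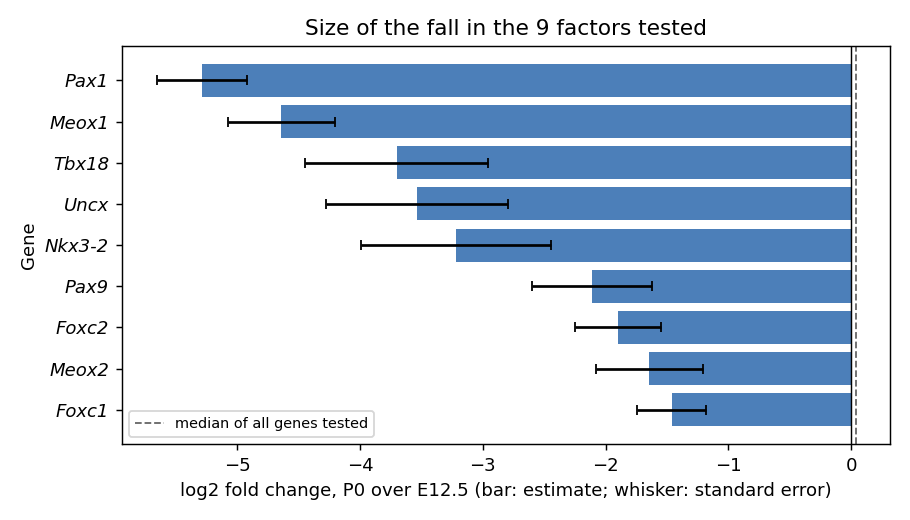
Estimated log2 fold change of P0 over E12.5 for the 9 factors tested, ordered by size, with whiskers for the standard error and a dashed line at the median of all genes tested. All bars point to lower abundance at P0, from -5.29 for Pax1 to -1.46 for Foxc1.

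The order of the factors changed with stage. Per kilobase of exon, Pax1 stood first at E12.5 at 19.5 ± 3.11 CPM per kb (SD, n = 4) and its litters did not overlap those of the next gene. Meox1 (8.55 ± 3.13), Foxc2 (8.14 ± 1.59) and Foxc1 (7.36 ± 1.35) followed with overlapping litters, and the other 6 factors lay between 2.68 and 3.66 CPM per kb with no neighbours apart. At P0, Foxc1 (2.67 ± 0.828 CPM per kb) and Foxc2 (2.18 ± 0.813) came first, followed by Meox2 (1.10 ± 0.240) and Pax9 (0.666 ± 0.338). Pax1 was the fifth at 0.497 ± 0.246 CPM per kb, and Uncx was the last at 0.251 ± 0.177. Every gene at P0 overlapped its neighbour in this order. The reads assigned to the list showed the same exchange, although such shares depend on transcript length. Pax1 took 35.2 to 45.8% of the summed CPM of each E12.5 litter and 5.46 to 8.31% of each P0 litter. Foxc1 made up 15.4 to 23.7% of the sum in each E12.5 litter, against 33.0 to 62.8% in each P0 litter.

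**Figure D3:**
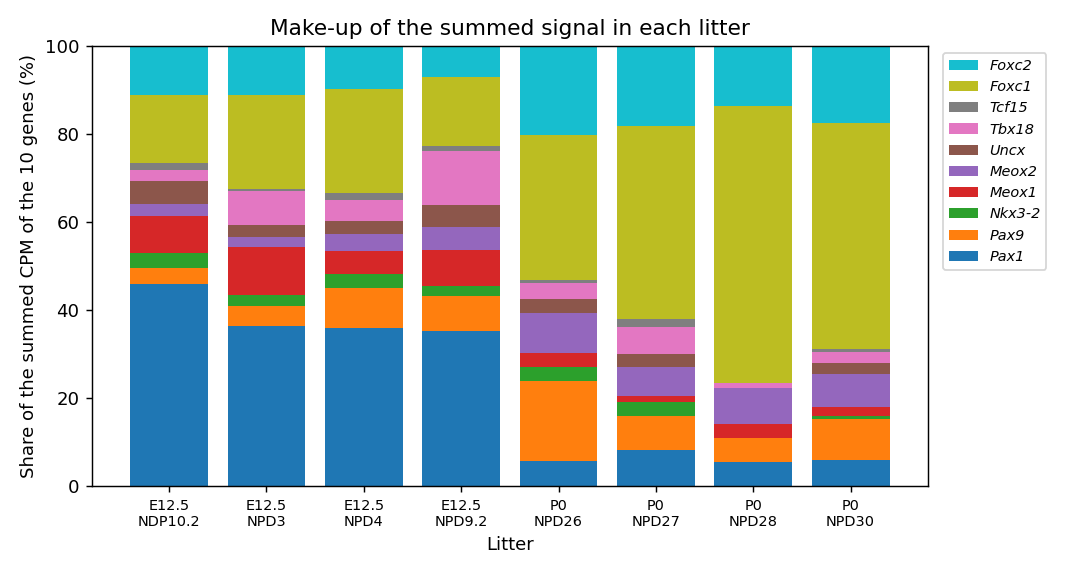
Share of each factor in the summed CPM of the 10 genes, in percent, with 1 bar per litter. Pax1 forms the largest segment in the 4 E12.5 bars (35.2 to 45.8%) and Foxc1 in the 4 P0 bars (33.0 to 62.8%).

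The balance within 4 pairs of related genes was compared between stages as the difference in log2 CPM inside each litter, by a two-sided exact permutation test over litters. With 4 litters against 4, the smallest p this test allows is 0.0286. Gene length enters the level of each difference but not its change between stages. The Pax1 minus Pax9 difference averaged 2.64 ± 0.75 at E12.5 and -0.48 ± 0.72 at P0 (SD, n = 4). The change of -3.12 was larger than the spread between litters, with no overlap, and had an exact permutation p of 0.0286 (0.0571 adjusted over the 4 pairs). In pooled reads, there were 5.67 Pax1 reads per Pax9 read at E12.5 and 0.681 at P0. The Meox1 minus Meox2 difference averaged 1.20 ± 0.76 at E12.5 and -1.43 ± 0.38 at P0, a change of -2.63 with the same exact permutation p of 0.0286 (0.0571 adjusted). Pooled reads of Meox1 per Meox2 read went from 2.26 to 0.292. Neither pair passed 0.05 after adjustment.

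The other pairs showed no such change at this depth. Uncx minus Tbx18 was -0.58 ± 1.12 at E12.5 and -0.47 ± 0.45 at P0, and its change of 0.11 (exact permutation p = 0.857) was smaller than the spread between litters. Foxc1 minus Foxc2 was 0.95 ± 0.35 at E12.5 and 1.37 ± 0.59 at P0, a change of 0.43 (exact permutation p = 0.286, adjusted p = 0.381). These values do not show that the balance of either pair was equal at the 2 stages. The differences contain a prior count of 2 reads, which draws genes with few P0 reads towards each other.

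**Figure D4:**
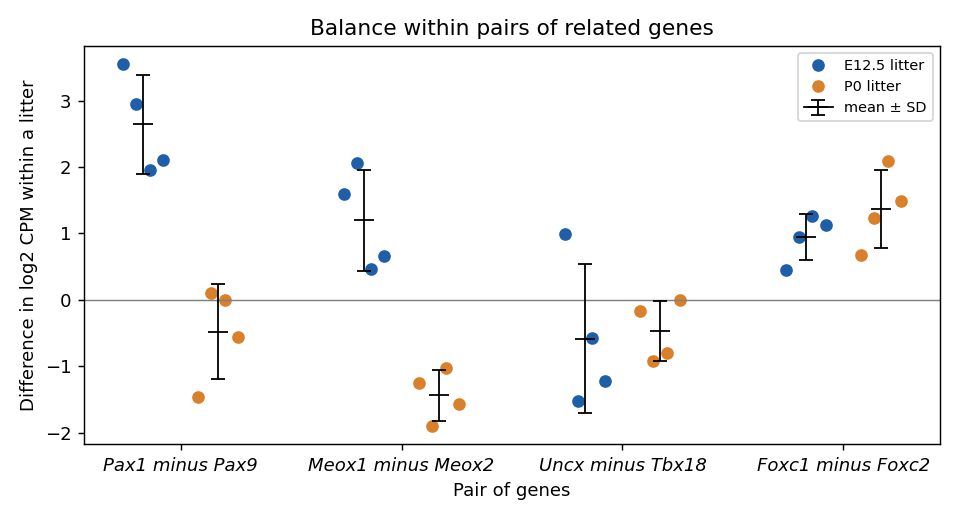
Difference in log2 CPM between the genes of a pair within each litter, with E12.5 in blue, P0 in orange and black bars for the mean and SD. The E12.5 and P0 litters do not overlap for Pax1 minus Pax9 and for Meox1 minus Meox2, and overlap for Uncx minus Tbx18 and for Foxc1 minus Foxc2.

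Within a stage, the factors varied with the litter. Among the P0 litters, NPD27 was highest for 8 of the 10 factors and NPD28 was lowest for 8. NPD28 also had, in values whose part was not tested, the lowest summed level among P0 litters for 8 of the 18 other lists, those of dermomyotome, tendon, mesenchyme, Foxc cluster neighbours, neural tube, neural crest and Schwann cells, erythroid cells, and endoderm and liver. Among the E12.5 litters no such order was seen, and NPD9.2 was highest for 4 factors and NPD4 for 0. After the mean of each stage was subtracted, Pearson correlations between 9 factors over the 8 libraries were above 0 for 32 of 36 pairs, with a median of 0.418. They ranged from -0.14 for Meox1 and Foxc1 to 0.853 for Pax1 and Foxc2. The values share libraries and depth, and are given as a description.

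Outside the list, the genes whose levels most resembled the mean standardised profile of the 9 factors over the 8 libraries were Sema3a (r = 0.999), Has1 (0.994), Kank4 (0.993), Sfrp1 (0.993) and Cxcl14 (0.992). Sema3a, which encodes a secreted axon guidance cue, had mean levels of 40.0 and 4.18 CPM at the earlier and later stage. Sfrp1, a secreted Wnt inhibitor, had 178 and 11.7 CPM. After subtraction of the stage means, the closest were Hoxd10 (r = 0.976), Sema3a (0.975), an identifier without a symbol (0.970), Itgb8 (0.964) and Ptrhd1 (0.963). Among 15467 genes some resemble any profile over 8 libraries, so these names are a description.

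Genes that act with the factors were mostly lower at P0 as well. Of 15 partners in sclerotome patterning, 13 were lower, 0 were higher and 2 did not pass the test, with a median log2 fold change of -2.45 against 0.04 over all genes tested. Shh, the inducing signal itself, had the largest fall (841 ± 456 to 5.94 ± 5.04 CPM, log2 fold change -7.14 ± 0.95). It was followed by Nog, which encodes a BMP antagonist that promotes sclerotome (28.7 ± 12.6 to 0.917 ± 0.429 CPM, -4.94 ± 0.51), and by Hhip, a target and inhibitor of hedgehog signalling (45.7 ± 14.5 to 4.45 ± 1.88 CPM, -3.35 ± 0.38). Without NDP10.2 and NPD9.2, 9 of the 15 were called lower. Pbx2 and Pbx3, cofactors of homeodomain proteins, did not pass the test. Shh is also the gene that drives the Cre allele.

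Markers of other derivatives of the somite gave a mixed record. In the dermomyotome list, 4 of 6 genes tested were lower, among them Pax3 (-3.54 ± 0.66) and Pax7 (-3.30 ± 0.98), at mean E12.5 levels of 10.3 and 12.2 CPM. In the segmentation and boundary list, 2 of 6 genes tested were lower, Efnb2 (-2.89 ± 0.27) and Dll1 (-2.23 ± 0.59), and the count was 1 without NPD9.2. The presomitic genes Msgn1 and Ripply1 had no read in any E12.5 litter, and Mesp1, Mesp2, Ripply2 and Hes7 averaged under 1 CPM at both stages. In the tendon list, 2 of 6 genes tested were lower, Etv4 (-2.28 ± 0.41) and Scx (-1.31 ± 0.36), and the median was 0.24. The count was 1 without NPD3, and also without NPD26. Scx encodes a factor of the tendon progenitors that arise next to the sclerotome. In the mesenchyme list, 7 of 10 genes were lower, led by Fbn2 (-4.28 ± 0.34), which encodes an embryonic fibrillin, Twist2 (-4.27 ± 0.66) and Postn (-2.26 ± 0.31). No gene of these 4 lists passed the test in the other direction.

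Of the cartilage genes that lie downstream of the sclerotome factors, 8 were tested. Lower abundance at P0 was called for 2 and higher for 1, and the median log2 fold change was -0.62. Col9a1 (810 ± 422 to 106 ± 48.4 CPM, -2.94 ± 0.48) and Sox5 (129 ± 30.7 to 32.6 ± 20.8 CPM, -1.99 ± 0.43) were lower. Acan, which encodes aggrecan, was higher (480 ± 314 to 1906 ± 1393 CPM, 1.99 ± 0.64, adjusted p = 0.0422, edgeR), with overlapping litters. The Acan call was lost when any of 5 litters was left out (NPD3, NPD4, NPD9.2, NPD28 or NPD30), under upper quartile scaling and without a filter. Cartilage matrix and Sox genes are also expressed by notochordal cells.

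The genes that lie beside Foxc1 and Foxc2 differed from each other. Foxf2, which encodes a forkhead factor of mesenchyme, ends 175 kb from Foxc1 and fell from 49.5 ± 14.9 to 0.588 ± 0.608 CPM (-6.33 ± 0.65). Foxf1 ends 28.0 kb from Foxc2 and fell from 63.0 ± 25.0 to 0.856 ± 0.682 CPM (-6.18 ± 0.51). Foxq1, 246 kb from Foxc1, was also lower (-3.30 ± 0.94), and Foxl1 was not tested. The adjacent metabolic genes Gmds (-0.32 ± 0.32) and Mthfsd (-0.54 ± 0.29) did not pass the test. The difference between the Foxc genes and their forkhead neighbours was not tested. Among close relatives of the factors, 3 of 5 genes tested were lower. These were Tbx15 (-3.00 ± 0.64), the nearest relative of Tbx18 in the list, Scx, which also stands in the tendon list, and Foxd1 (-1.27 ± 0.36). This count, too, was 1 without NPD3 and 1 without NPD26.

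**Figure D5:**
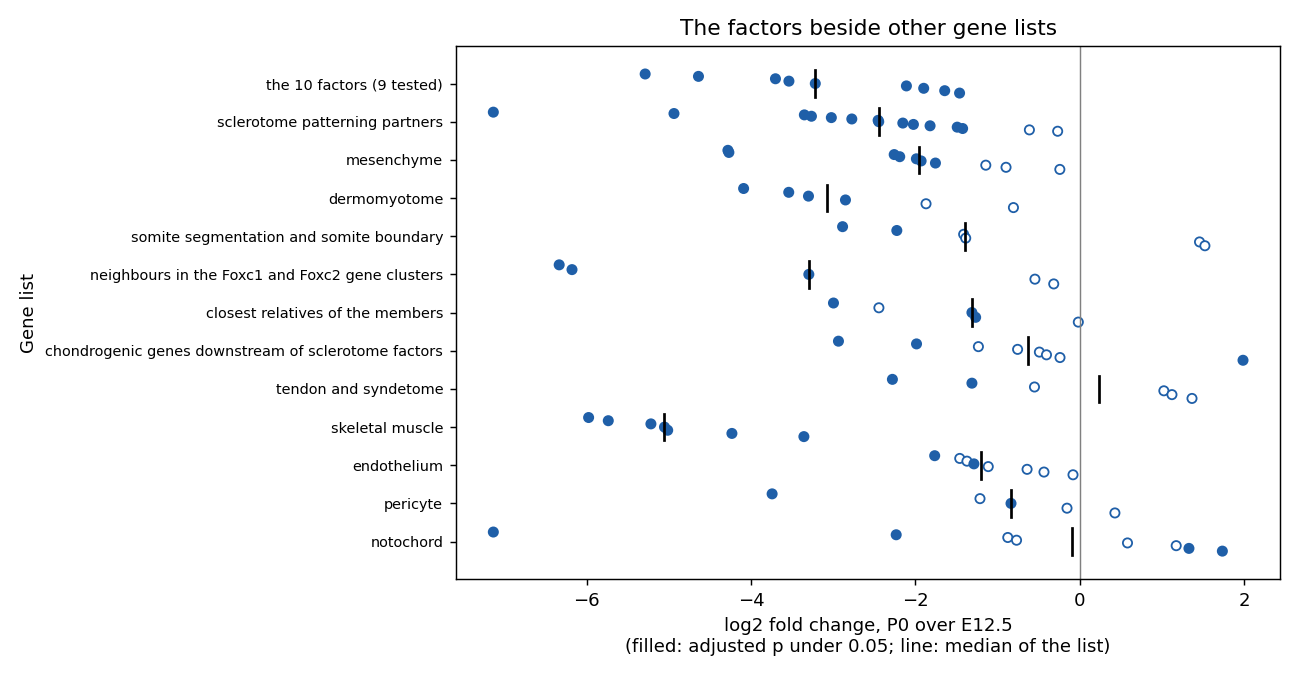
Log2 fold change of P0 over E12.5 for each gene tested in 13 lists, with filled points for an adjusted p under 0.05 and a black line at the median of each list. All points lie to the left of 0 for the factors, patterning partners, mesenchyme, dermomyotome, Foxc neighbours, close relatives, skeletal muscle and endothelium. The segmentation, cartilage, tendon, pericyte and notochord lists spread to both sides.

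Markers of other tissues also moved with stage, and their part in the levels of the factors was not tested. Skeletal muscle genes summed to 643 to 2795 CPM at E12.5 and 20.2 to 85.4 CPM at P0, and 7 of 7 tested were lower, led by Myh3, Actc1 and Myod1. Erythroid genes summed to 9404 to 42170 CPM at E12.5 and 155 to 488 CPM at P0, with 5 of 6 lower, led by the embryonic globins Hbb-y, Hba-x and Hbb-bh1. The endoderm and liver list summed to 52.7 to 720 CPM and 1.06 to 5.62 CPM, with 4 of 4 tested lower, led by Afp, Alb and Apoa1. In the neural crest and Schwann list, 5 of 6 genes were lower, led by Foxd3, Tfap2a and Sox10, although its summed level overlapped between stages (298 to 571 CPM and 23.9 to 647 CPM). The neural tube list reached 1276 CPM in NPD4 and 97.6 to 158 CPM in the other E12.5 litters, against 153 to 359 CPM at P0. Most of the NPD4 sum came from Tubb3 (576 CPM), Dcx (378 CPM) and Elavl3 (289 CPM). Sox2 stood at 27.0 CPM in NPD4, and the other genes of this list at no more than 1.57 CPM. In this list, 1 of 6 genes tested was lower (Sox2), which was 0 without NDP10.2 and NPD9.2. Of the notochord list, 2 of 8 genes tested were lower (Shh and Foxa1) and 2 were higher (Krt19 and Cd24a; 0 were higher without NPD9.2), and its summed level overlapped at 1687 to 4007 CPM and 1969 to 6935 CPM.

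Endothelial cells and pericytes are themselves known to express some of the factors. Endothelial genes, which bear on Foxc1, Foxc2 and Meox2, summed to 89.2 to 182 CPM at E12.5 and 33.8 to 130 CPM among P0 litters. Of the 8 tested, 2 were lower (Emcn, -1.76 ± 0.59, and Egfl7, -1.29 ± 0.30), and the count ranged from 0 to 4 among the alternatives. The defining genes Pecam1 and Cdh5 overlapped between stages. Pericyte genes, which bear on Tbx18, summed to 242 to 584 CPM and 68.4 to 284 CPM. Of these sums, Cspg4 alone held 129 to 425 CPM at E12.5 and 31.3 to 223 CPM at P0, and it did not pass the test. Of the 5 tested, 2 were lower (Notch3, -3.74 ± 0.35, and Pdgfrb, -0.84 ± 0.28), and the count was 1 under 8 of the alternatives. In the opposite direction, osteoblast genes summed to 30.7 to 248 CPM at E12.5 and 1065 to 1827 CPM at P0. Spp1 alone held 26.4 to 245 CPM of the E12.5 sums and 692 to 1207 CPM of the P0 sums. Of the osteoblast genes, 5 of 5 tested were higher, led by Ibsp and Dmp1, and Dmp1 had no read in any E12.5 library. Leukocyte genes summed to 33.4 to 77.0 CPM and 186 to 2338 CPM, with 6 of 6 higher, led by Ptprc, Cd52 and Fcer1g.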

How the data were processed

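Raw read counts per gene were deposited by the authors for 8 libraries, made per the labels and methods with STAR 2.4.0j and HTSeq; the submitters' notes list both mm9 and GRCm38.p3, and the use of strand in counting is not given in the sources used here. Reads without a gene name (65.2 to 77.4% of each library) were left out. Symbols, exon lengths and positions came from Gencode M21 (GRCm38). Genes with low counts were removed with filterByExpr (minimum count 10, minimum total 15), which left 15467 genes. They were scaled by TMM and tested with the robust edgeR 4.0.16 quasi-likelihood test on stage alone in R 4.3.3, with Benjamini-Hochberg adjustment over all genes tested and a threshold of 0.05. The test was tried on simulated data. CPM values use TMM library sizes, and log2 CPM a prior count of 2. Pairs were compared by exact permutation. Litters are the replicates, and p-values measure the spread between these 8 pools. No pair of libraries held identical counts. DESeq2 1.42.0, limma 3.58.1, other scalings and filters, and leaving out litters were alternatives.

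The 10 factors, the 18 other lists (146 distinct genes) and the tests were chosen with earlier results of these data known. Genes named from a list are up to 3 with the largest rise and up to 3 with the largest fall past the threshold, with defining markers where they bear on a factor. A gene that this rule would name is not reported here. The floor of 3 counts covers counting error only, whereas SDs and standard errors hold the spread between litters.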

Additional observations from a re-analysis of the deposited data

Results flagged for a closer look

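The Meox2 level in the E12.5 litter NPD9.2 (13.5 CPM) lay far from the other E12.5 litters (5.90 to 7.01 CPM), with a gap beyond Dixon's 95% critical value for groups of that size. It was the only one of 20 groups of 4 litters (10 factors at 2 stages) past that value, and chance flags about 1 in 20. The library is also 1 of the 2 with a high share of ambiguous reads. Its part in the Meox2 level was not tested.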

How the results depend on the processing

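Over 144 fits of the 9 factors under alternatives, 140 kept direction and side of the threshold, 0 reversed and 4 lost the call. Those were Nkx3-2 (-3.19), Meox2 (-1.37) and Uncx (-2.99) without the E12.5 litters NDP10.2 and NPD9.2, and Meox2 without NPD9.2, and the 2-litter fit has fewer samples. With 1 litter left out at a time, Meox2 ranged from -1.81 to -1.32 on the log2 scale, Nkx3-2 from -3.92 to -2.77 and Tbx18 from -4.44 to -3.19. The number of factors called ranged from 6 to 10. Tcf15 entered 5 of the fits with 1 litter left out, and its adjusted p (edgeR) was 0.0315 without NPD3, 0.0779 without NPD26, 0.0155 without NPD27, 0.0516 without NPD28 and 0.0544 without NPD30. The change of Uncx minus Tbx18 reversed to -0.21 with a prior count of 0.5 and ranged from -0.20 to 0.64 with 1 litter left out, with -0.10 without NPD9.2 and, at P0, -0.04 without NPD30 and 0.26 without NPD27. The other 3 pairs kept their direction. Without both litters, 2581 genes were called against 4321. Upper quartile scaling moved the median of all genes from 0.04 to -0.11 and the split of calls from 2468 higher and 1853 lower to 2105 higher and 2322 lower; all 9 factors stayed lower. In the other lists, counts of calls lower at P0 totalled 62 (47 to 69 under alternatives) and higher 14 (10 to 15). The single higher cartilage gene, the single lower neural tube gene, the 2 higher notochord genes and the endothelial, pericyte, tendon and segmentation counts each fell to 0 or 1 under at least 1 alternative. No paired analysis was possible because each litter was collected at only 1 stage, and the litter names give no numbers shared between stages. Depth limits Nkx3-2, Meox1, Uncx and Tcf15 at P0, where several libraries hold under 7 reads. It also limits Tbx18, with 7, 19, 2 and 6 reads in the P0 litters.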
